A study of Mus musculus with 2 samples.

Results

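The Sox genes encode transcription factors that bind DNA through a high mobility group (HMG) box. The 8 genes described here are Sox4, Sox11 and Sox12 of the SoxC family, Sox5 and Sox6 of the SoxD family, and Sox8, Sox9 and Sox10 of the SoxE family. They were chosen by symbol from the gene lists of 2 single-cell libraries, which hold 31053 genes at the embryonic stage E15.5 and 27998 genes in the E17.5 library, and all 8 are present in both lists. The rule used no measured value, but the genes were picked with earlier results of these data known.

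The libraries were made from the coronal suture, the seam of mesenchyme between the frontal and parietal bones of the skull, of wild-type C57/BL6 mice. The E15.5 library pooled 10 sutures, digested with Collagenase II and Dispase and depleted of dead cells with a kit. The E17.5 library came from 16 sutures of 2 litters in 3 batches, digested with Collagenase IV, each batch sorted by flow cytometry, and its barcodes carry 3 suffixes, which the sources used here do not tie to the batches. The authors prepared the E17.5 libraries separately in the 3 batches, as a technical control, and deposited 1 sample per stage. Each deposited sample is called a library here. With 1 sample per stage, no difference between stages or clusters could be tested over samples. Stage, enzyme, sorting, sequencing site and counting cannot be told apart.

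Cells were grouped by the cluster labels that the authors deposited: the ectocranial clusters EC1 to EC4, the ligament-like cluster LIG above the suture, the osteogenic clusters OG1 to OG4, the proliferating osteogenic clusters PO1 and PO2, and the meningeal clusters MG1 to MG4. MG1 and MG2 were read by the authors as a likely periosteal dura, the outer layer next to the bone. The labels cover 5335 cells at E15.5 and 6830 in the E17.5 library, in 15 clusters of 28 to 1185 and of 76 to 1010 cells, with a median of 8510 and 12302 molecules (unique molecular identifiers, UMIs) per cell. Levels are counts of a gene's UMIs scaled to the total UMIs of the group (CPM), with an exact Poisson 95% interval in parentheses. All intervals cover counting error only. The clusters were drawn by the authors from the expression of these same cells, so differences between clusters are descriptions.

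SoxE factors are best known for making chondrocytes and neural crest derivatives. In cartilage Sox9 switches on the genes of the matrix, and Sox5 and Sox6 of the SoxD family, which lack an activation domain of their own, bind beside it and strengthen its action. Sox10 marks the neural crest lineage of Schwann cells and melanocytes. SoxC factors act in many immature mesenchymal and neural cells, where Sox4 and Sox11 overlap in function and promote survival and growth of progenitors.

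The 3 families can be told apart in the HMG box itself. The coding bases of 30 codons at the start of the box were compared for the 8 members, read from the GRCm38 transcripts, with capitals marking the 45 of 90 bases that all 8 share. The encoded residues were 86.7% to 96.7% identical within SoxC, and 100% identical within SoxD and within SoxE. Between families 60% to 76.7% of the residues were identical, over 21 pairs.
Sox4: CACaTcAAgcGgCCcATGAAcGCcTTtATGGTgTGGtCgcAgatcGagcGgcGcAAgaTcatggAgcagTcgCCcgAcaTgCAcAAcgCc
Sox11: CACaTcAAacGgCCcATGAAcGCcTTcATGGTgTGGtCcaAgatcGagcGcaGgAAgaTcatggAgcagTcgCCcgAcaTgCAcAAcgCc
Sox12: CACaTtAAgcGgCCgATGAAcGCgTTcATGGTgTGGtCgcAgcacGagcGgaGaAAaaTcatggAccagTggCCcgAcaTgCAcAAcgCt
Sox5: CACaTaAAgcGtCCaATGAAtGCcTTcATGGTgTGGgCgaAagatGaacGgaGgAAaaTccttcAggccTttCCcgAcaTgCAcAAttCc
Sox6: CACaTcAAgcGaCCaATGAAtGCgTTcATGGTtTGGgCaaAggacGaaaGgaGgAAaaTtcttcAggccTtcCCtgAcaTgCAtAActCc
Sox8: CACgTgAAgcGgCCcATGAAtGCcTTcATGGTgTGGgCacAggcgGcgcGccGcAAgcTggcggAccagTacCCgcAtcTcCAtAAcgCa
Sox9: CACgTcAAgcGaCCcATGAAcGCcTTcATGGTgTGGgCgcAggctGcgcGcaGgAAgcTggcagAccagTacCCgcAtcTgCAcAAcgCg
Sox10: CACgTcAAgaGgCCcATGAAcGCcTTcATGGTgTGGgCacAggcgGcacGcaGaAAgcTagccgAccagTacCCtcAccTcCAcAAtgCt
Because single-cell tags lie at the 3′ end of transcripts, the shared box does not decide how tags were assigned. Over the last 500 bases of the transcripts, the longest run shared by any of the 28 pairs of members was 16 bases. The genes also differ widely in length on GRCm38. Sox5 (chromosome 6, positions 143828425 to 144781977) and Sox6 (chromosome 7, positions 115470872 to 116038796) span 954 and 568 kb on the minus strand. The SoxC and SoxE genes are compact, with Sox4 on chromosome 13 (28948919 to 28953713), Sox11 on chromosome 12 (27334264 to 27342574), Sox12 on chromosome 2 (152393611 to 152398063), Sox8 on chromosome 17 (25565892 to 25570686), Sox9 on chromosome 11 (112782224 to 112787760) and Sox10 on chromosome 15 (79154908 to 79165240). The antisense gene Gm26735 overlaps Sox4 and had 116 and 121 UMIs in labelled cells at E15.5 and E17.5, and how the counting used strand is not given in the sources used here. Levels of different genes were not compared.

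A droplet can hold a few UMIs of genes that its cell does not express, from free RNA or from a second cell. Macrophages among the unlabelled cells, gated on complement C1q genes (341 cells at E15.5, 581 at E17.5), should lack SoxD and SoxE genes. They held Sox9 at 35.9 CPM (30.1–42.5) at E15.5 and 2.54 CPM (1.48–4.06) in the E17.5 library. At E15.5 they held 15.9 Sox9 UMIs per 100 UMIs of the cartilage gene Matn1 (13.1–19.0), beside 13.2 (12.8–13.5) in Matn1-rich cells, and the intervals overlap. The E15.5 value was 12.3 CPM in macrophages with 0 Matn1 UMIs. Of the macrophages, 18 at E15.5 and 2 in the E17.5 library themselves held at least 10 Matn1 UMIs, and free RNA and doublets were not separated. A cluster level of a SoxD or SoxE gene that did not exceed the macrophage interval is called at background below. This means only that it was not above the macrophages, not that the gene was absent. Many E15.5 clusters lay well below the macrophages, as EC2 with Sox6 at 2.82 CPM against 16.1 CPM. The macrophage level is thus not a floor shared by all cells. In all, 42 labelled barcodes occurred in both libraries.

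With no replicates, a gene was counted as high in a cluster where its CPM was at least 2-fold above that of the other labelled cells in both libraries, and as low where it was at most 0.5-fold in both. Genes with at least 50 UMIs in the labelled cells of each library entered these counts, which kept 11868 genes and 7 of the 8 members. Sox10, with 16 and 21 UMIs, did not. The members were high in 4 of 105 pairs of gene and cluster, or 3.81%, where 1.89% of the pairs of all genes were high. The 4 were Sox9 in MG1 and MG2, Sox5 in MG2 and Sox6 in OG1. They were low in 10 pairs, or 9.52%, where 5.83% of all pairs were low. When the macrophage level was subtracted, an alternative added after the data were seen, all 4 high pairs were kept, as were 2 of the 10 low pairs, Sox4 in PO1 and Sox11 in OG4. At E15.5 the other labelled cells held less Sox5, Sox6 and Sox9 than the macrophages, so nothing was left of their level. For these genes any cluster with more than the macrophages was then high at E15.5, and none could be low. The subtraction therefore does not check their low calls, and checks their high calls at E17.5 only.

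**Figure D1:**
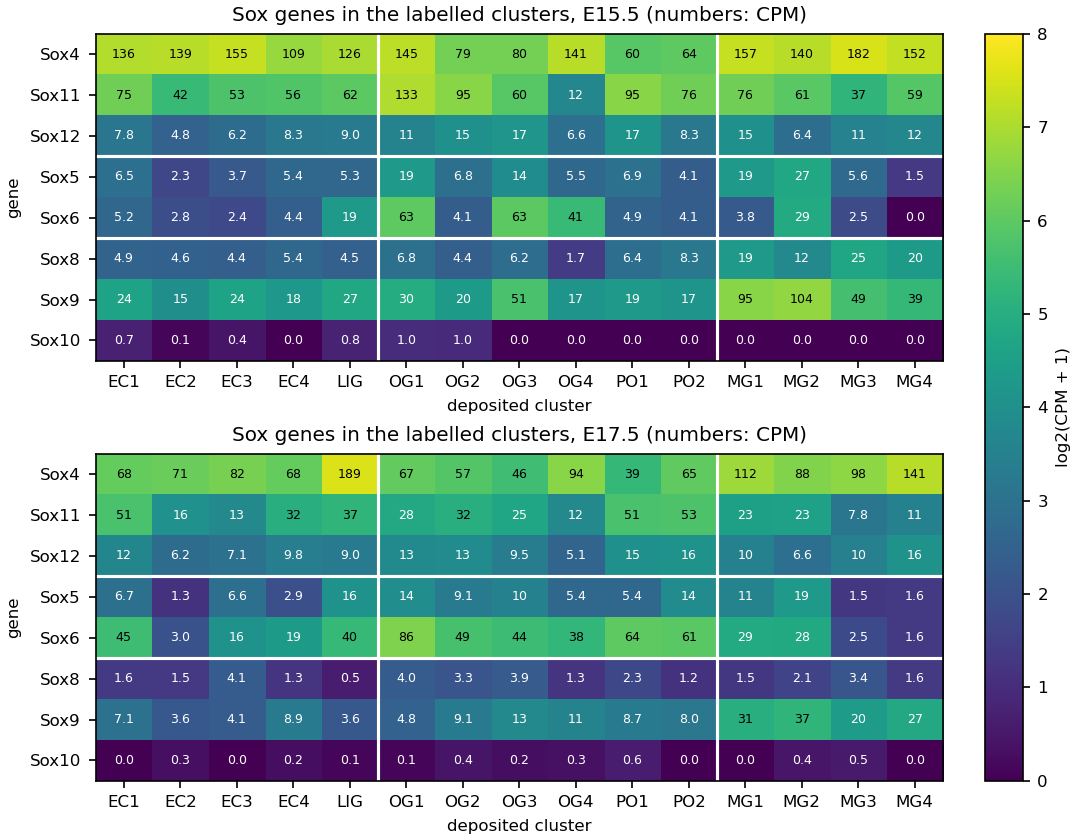
Level of each Sox gene in the 15 deposited clusters at E15.5 (top) and E17.5 (bottom), with the CPM printed in each cell and colour for log2(CPM + 1). White lines part the 3 families and the 3 layers. Sox9 stands out in MG1 and MG2 in both libraries, and Sox6 covers more of the osteogenic clusters at E17.5 than at E15.5.

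Sox4, like Sox11 and Sox12 of its family, was found in every cluster of both libraries. At E15.5 its level ran from 59.7 CPM (49.6–71.3) in PO1 to 182 CPM (164–202) in MG3, and the intervals of MG1 and MG4 overlapped that of MG3. At E17.5 the order was different. LIG was highest at 189 CPM (180–198), with no overlapping cluster, and PO1 was again lowest at 39.3 CPM (34.9–44.2). The LIG level was 133, 194 and 189 CPM in the 3 barcode suffixes of E17.5. PO1 was 0.45-fold of the other labelled cells in both libraries, and no cluster was high for Sox4. The macrophages held Sox4 at 47.8 and 40.2 CPM, and 13 of the 15 clusters lay above the macrophage interval in each library.

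Sox11 differed from Sox4 in its order of clusters. At E15.5 it was highest in OG1 at 133 CPM (117–150), followed by PO1 at 95.5 CPM and OG2 at 94.6 CPM, and only the interval of MG1 overlapped that of OG1. OG1 is the cluster that the authors placed first in the osteogenic series and OG4, rich in mature osteoblast genes, last. In OG4 the Sox11 level was 12.2 CPM (7.62–18.4), 0.19-fold (0.12–0.29) of the other labelled cells. At E17.5 OG4 was at 12.5 CPM, 0.43-fold (0.36–0.51) of the others, and the highest levels were in PO2 (53.1 CPM), EC1 (51.0 CPM) and PO1 (50.8 CPM), whose intervals overlapped. The OG4 level at E15.5 did not exceed that of the macrophages, 16.1 CPM (12.3–20.7), while at E17.5 it lay above their 4.93 CPM (3.39–6.92).

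In PO1, Sox4 was thus lowest in both libraries while for Sox11 it was among the 3 highest in both. Cells with at least 3 UMIs of 7 mitosis genes were therefore set against cells with 0, leaving out PO1 and PO2. Sox11 was 1.34-fold (1.22–1.47) higher in the mitotic cells at E15.5 and 1.52-fold (1.35–1.70) higher in the E17.5 library. Sox4 was 0.78-fold (0.72–0.84) and 0.90-fold (0.84–0.95) of its level in cells with 0 mitosis UMIs. By cluster, Sox11 was above 1 in 10 of 13 at E15.5 and 12 of 13 in the E17.5 library, with 1 cluster, OG2 at E15.5 (0.64-fold), whose interval lay below 1. Sox4 was below 1 in 11 of 13 clusters and 8 of 13. All these pooled ratios were smaller than 2-fold. The mitotic cells were also deeper, with a median of 10856 against 7895 UMIs at E15.5 and 15578 against 10025 in the E17.5 library, and the part of depth in the ratios was not tested.

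Sox12, the third SoxC gene, ran from 4.78 CPM in EC2 to 17 CPM in OG3 at E15.5, and from 5.14 CPM in OG4 to 16.1 CPM in PO2 at E17.5. In both libraries 11 clusters had intervals that overlapped the highest, and no cluster was high or low in both.

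Sox6, a SoxD gene, was highest in the osteogenic layer. At E15.5 the clusters above background were OG1 at 63.4 CPM (52.7–75.8), OG3 at 62.6 CPM (49.7–77.8), OG4 at 41.4 CPM (32.6–52.0) and MG2 at 28.6 CPM (22.9–35.4), with macrophages at 16.1 CPM (12.3–20.7). LIG (19.3 CPM) was above only those macrophages with 0 Matn1 UMIs (4.40 CPM). In the other osteogenic clusters the E15.5 level was below that of the macrophages, with 4.14 CPM in OG2, 4.90 CPM in PO1 and 4.13 CPM in PO2. At E17.5 all 6 osteogenic clusters lay above the macrophage level of 6.87 CPM (5.03–9.16). OG1 was again highest, at 85.8 CPM (80.6–91.2) with no overlapping cluster, followed by PO1 at 64.4 CPM, PO2 at 60.5 CPM and OG2 at 49.4 CPM.

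Relative to the rest of the labelled cells, OG1 was 6.75-fold (5.47–8.26) higher in the E15.5 library and 2.43-fold (2.26–2.61) higher in the E17.5 library. Summed over layers, osteogenic cells exceeded ectocranial cells 5.02-fold (4.14–6.11) at E15.5 and 2.37-fold (2.17–2.59) in the E17.5 library. Sox6 was low in 5 clusters in both libraries, which were EC2, EC3, EC4, MG3 and MG4. Once the macrophage level was subtracted, 0 were low. The other labelled cells were below that level at E15.5, so no cluster could then have been low. In MG4 it was listed with 0 UMIs at E15.5 and at 1.58 CPM in the E17.5 library. MG3 held 2.54 and 2.45 CPM, whereas MG2 held 28.6 and 28.1 CPM.

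Sox5, the second SoxD gene, was highest in MG2 in both libraries, at 26.6 CPM (21.1–33.2) at E15.5 and 18.6 CPM (15–22.9) in the E17.5 library. These levels were 4.88-fold (3.74–6.31) and 2.14-fold (1.70–2.66) those of the other labelled cells. The E17.5 value differed between barcode suffixes, with 27.8, 14.8 and 15.1 CPM, and without suffix 1 MG2 was no longer 2-fold above the rest. The intervals of OG1, OG3 and MG1 at E15.5, and of LIG, OG1 and PO2 at E17.5, overlapped that of MG2. At E15.5 MG2 was also the only cluster above the macrophage level of 16.1 CPM (12.3–20.7), while OG1 (18.7 CPM) and OG3 (13.9 CPM) lay above the 4.40 CPM of macrophages with 0 Matn1 UMIs. At E17.5, where macrophages held 2.24 CPM, 10 clusters were above them, among them LIG at 16.1 CPM, OG1 at 14.3 CPM and PO2 at 13.6 CPM. Sox5 was low in EC2 and MG4.

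Sox9, the SoxE gene that directs cartilage formation, was highest in the meningeal clusters MG2 and MG1 among the labelled cells. In the E15.5 library the osteogenic cluster OG3 came next at 51.0 CPM, beside MG3 at 49.3 CPM and MG4 at 39.1 CPM. At E15.5 MG2 held 104 CPM (92.5–116) and MG1 95.4 CPM (61.8–141), and at E17.5 MG2 held 37.0 CPM (31.8–42.8) and MG1 31.2 CPM (26.7–36.3). Against the other labelled cells MG2 was 4.41-fold (3.87–5.0) and 3.70-fold (3.14–4.35) higher, and MG1 3.40-fold (2.19–5.04) and 3.08-fold (2.60–3.63) higher. The MG2 level was 31.5, 42.0 and 36.7 CPM in the 3 suffixes of E17.5. MG1 had 0 cells in suffix 1 and held 34.0 and 29.1 CPM in suffixes 2 and 3. Summed over layers, meningeal cells exceeded osteogenic cells 3.23-fold (2.78–3.76) and 3.36-fold (2.94–3.83), and ectocranial cells 3.74-fold (3.31–4.23) and 6.35-fold (5.20–7.79).

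MG1 and MG2 were the only clusters whose Sox9 interval lay above that of the macrophages at E15.5, so the levels of 14.7 to 51.0 CPM in the other clusters are at background by that measure. Against the macrophages with 0 Matn1 UMIs, however, at 12.3 CPM (8.19–17.8), 9 clusters were above, which added EC1, EC3, LIG, OG1, OG3, MG3 and MG4. Which of these levels is background thus depends on the macrophages chosen. After every cell was thinned to 3000 UMIs, OG3 and MG3 were above it too. In thinned MG2 cells Sox9 was detected in 23.5% (19.1–28.3), against 5.41% (3.23–8.41) of macrophages. The unthinned shares were 48.3% and 15%, at a median of 7174 UMIs per MG2 cell and 9877 per macrophage. At E17.5, with little Sox9 in the macrophages, 11 clusters lay above the macrophages. MG4 (27.4 CPM) overlapped the interval of MG2, and the osteogenic clusters OG3 (12.7 CPM) and OG4 (10.9 CPM) were next after MG3 (20.1 CPM). In EC2 Sox9 was low, at 0.46-fold and 0.30-fold.

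For Sox9 in MG1 and MG2, the ratio to Matn1 was above that of the Matn1-rich cells, which were themselves picked by Matn1. That choice lowers their ratio, so a difference from cartilage was not tested. MG2 held 196 Sox9 UMIs per 100 Matn1 UMIs (161–239) at E15.5 and 511 (354–757) in the E17.5 library, and MG1 179 (89.3–372) and 319 (233–441). The Matn1-rich cells held 13.2 and 11.4. Other clusters at E15.5 were between these values, with 26.1 in EC2, 46.5 in EC3 and 117 in MG3. At E17.5 the ratio was not particular to MG1 and MG2, as MG3 held 315 (166–641), PO2 260 (87.0–931) and MG4 236 (141–409). Set against Col2a1 at E15.5, MG2 held 31.1 Sox9 UMIs per 100 (27.3–35.4), beside 6.18 in the Matn1-rich cells, while MG1 at 13.3 (8.39–20.2) was like EC1 at 13.5, LIG at 14.8 and EC3 at 16.5.

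**Figure D2:**
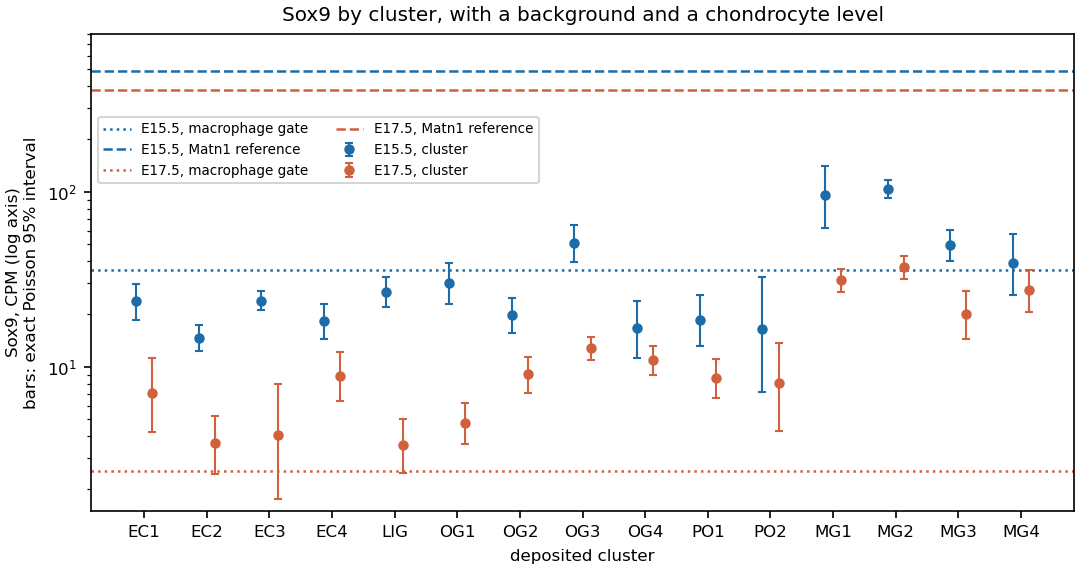
Sox9 level in CPM with 95% Poisson intervals for each cluster at E15.5 and E17.5, on a log axis, with dotted lines for the macrophage gate and dashed lines for the Matn1-rich chondrocyte reference of each stage. MG1 and MG2 lie above the macrophage line at E15.5 (35.9 CPM) while most other clusters lie below it, and at E17.5 the line is at 2.54 CPM.

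The cartilage genes that Sox9 is known to act on were examined in the same clusters. Of a list of 15 cartilage genes, 13 were tested, since Snorc was in neither list by that symbol and Cnmd in the E15.5 list only. In MG1, 8 of the 13 were high in both libraries and 0 were low, where 1.47% of all genes were high in MG1. The median ratio of the list to the other labelled cells was 3.47 and 3.49, against 0.923 and 0.949 over all genes. Col11a1, a minor fibrillar collagen of cartilage, was at 1370 and 1172 CPM, or 3.47-fold and 4.63-fold. Acan, which encodes aggrecan, was at 191 and 142 CPM, or 5.07-fold and 3.98-fold, and Epyc, a small matrix proteoglycan, at 87.8 and 233 CPM, or 4.70-fold and 16.6-fold. Matn1 itself was 0.89-fold and 1.27-fold, and was not called. The authors described MG1 by Col2a1 and Acan, so those 2 genes are not independent evidence. The clusters were drawn from the expression of these same cells, so the other genes of the list are not independent of the label either.

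In MG2, whose Sox9 interval overlapped that of MG1, 4 of the 13 cartilage genes were high (Acan, Col9a1, Col9a3 and Ucma) and 1, Col11a2, was low. Of all genes 2.44% were high in MG2. The median ratio of the list was 1.99 and 1.91, against 0.896 and 0.962 over all genes. Acan was at 167 CPM there at E15.5 and 98.95 CPM in the E17.5 library.

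Within thinned MG2 cells at E15.5, Sox5 was detected in a smaller share of cells with a Sox9 UMI than of cells without one. The pair was singled out, after its values were seen, from 8 pairs of members computed in every cluster. After thinning to 3000 UMIs, Sox5 was detected in 1.25% (0.03–6.77) of 80 cells with a Sox9 UMI and in 12.3% (8.54–16.9) of 261 cells without one. These intervals do not overlap, but cells are not replicates, and a gap in 1 pair picked from so many was not tested. Before thinning, 10 of 350 MG2 cells held Sox5, Sox6 and Sox9 together at E15.5. At E17.5 the shares were 4.17% (0.51–14.3) of 48 cells and 7.06% (4.81–9.92) of 425 cells, in the same direction with overlapping intervals. MG1 went the other way, with Sox5 in 16.7% of 6 cells with a Sox9 UMI and 4.76% of 21 without at E15.5, and in 10.8% (3.03–25.4) of 37 and 2.33% (1.07–4.38) of 386 in the E17.5 library, all intervals overlapping. Over all labelled cells the shares were 3.97% with and 1.88% without a Sox9 UMI at E15.5, and 3.83% and 2.65% in the E17.5 library. In OG1 at E15.5 the SoxD genes went the other way, with Sox5 in 20.6% (8.70–37.9) of 34 cells with a Sox6 UMI and in 3.52% (1.43–7.11) of 199 cells without. At E17.5 the OG1 intervals overlapped, with 4.47% (2.25–7.86) of 246 and 4.19% (2.88–5.86) of 764 cells.

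Sox8, a SoxE gene with few UMIs, had its 4 highest levels in the meningeal clusters at E15.5, and the interval of PO2 overlapped all 4. MG3 held 24.9 CPM (18.4–32.9), MG4 19.6 CPM, MG1 19.1 CPM and MG2 12.5 CPM (8.78–17.2), while the remaining clusters held 1.66 to 8.26 CPM. At E17.5 the 15 clusters held between 0.543 CPM in LIG and 4.06 CPM in EC3, and the intervals of 13 overlapped that of EC3. Sox8 was not high or low in any cluster in both libraries. The macrophage level was 0.528 CPM at E15.5 and 0.746 CPM in the E17.5 library.

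Unlabelled cells with at least 10 Matn1 UMIs served as a chondrocyte reference (1195 cells at E15.5, 181 at E17.5). Sox9 was at 492 CPM (481–504) and 384 CPM (358–410) there, 17.3-fold and 33.7-fold above all labelled cells. Sox5 was at 198 and 145 CPM, or 29.3-fold and 15.7-fold. Sox9 and Sox5 were the 2 members at least 2-fold higher in both libraries, where 3.67% of all genes were higher, and 0 members were at most 0.5-fold, where 10.4% of all genes were. Sox6 was at 111 CPM at E15.5, 9.59-fold above the labelled cells, and at 65.6 CPM at E17.5, 1.57-fold above them, the labelled cells being at 11.5 and 41.8 CPM. The OG1 level of Sox6 at E17.5 (85.8 CPM) exceeded that of the reference.

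The cartilage trio of Sox5, Sox6 and Sox9 was found together in a cell mainly in this reference. All 3 had a UMI in 56.6% (53.7–59.4) of the E15.5 reference cells and 42.5% (35.2–50.1) at E17.5, against 0.69% and 0.67% of labelled cells, and 3.81% and 0.52% of macrophages. After thinning, the shares were 8.15% and 4.97% in the reference and 0.06% and 0.01% in labelled cells. In MG2, 10 of 350 cells held all 3 at E15.5 and 5 of 473 in the E17.5 library, and in each library the interval of the share overlapped that of the macrophages. Sox4 was at 79.4 CPM (0.61-fold) in the reference at E15.5 and at 150 CPM (1.82-fold) in the E17.5 library. Sox8 was at 8.24 and 9.11 CPM, or 1.30-fold and 3.83-fold.

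Sox10 was near 0 in the labelled mesenchyme. It had a UMI in 13 of 5335 labelled cells at E15.5 and 21 of 6830 in the E17.5 library, and in no cluster exceeded 1.04 CPM. Unlabelled cells with at least 3 of 7 Schwann and glial genes, 12 at E15.5 and 33 in the E17.5 library, were gated to look for it. Sox10 was detected in 6 of the 12 and 31 of the 33 cells, at 161 CPM (88.2–271) and 301 CPM (247–364). The glial marker Gfra3, which the gate uses, was at 829 and 633 CPM. Sox9 was at 57.6 CPM, from 5 UMIs, and 2.81 CPM, from 1 UMI, in these cells, and Sox8 had 0 UMIs.

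The glial cells also held Sox4 at 288 CPM (186–425) and 594 CPM (516–680), Sox11 at 253 and 189 CPM, and Sox5 at 207 and 135 CPM. In the chondrocyte reference Sox10 had 64 UMIs in 60 of 1195 cells (5.02%) at E15.5, 4.36 CPM, and 2 UMIs in 181 cells at E17.5. This E15.5 level was 13.2-fold (7.56–24.5) above the labelled cells, while the macrophages held 0 UMIs in 341 cells, which allows a share of cells with a UMI of up to 0.880%. The melanocyte gate held 1 cell at E15.5 and 0 in the E17.5 library.

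**Figure D3:**
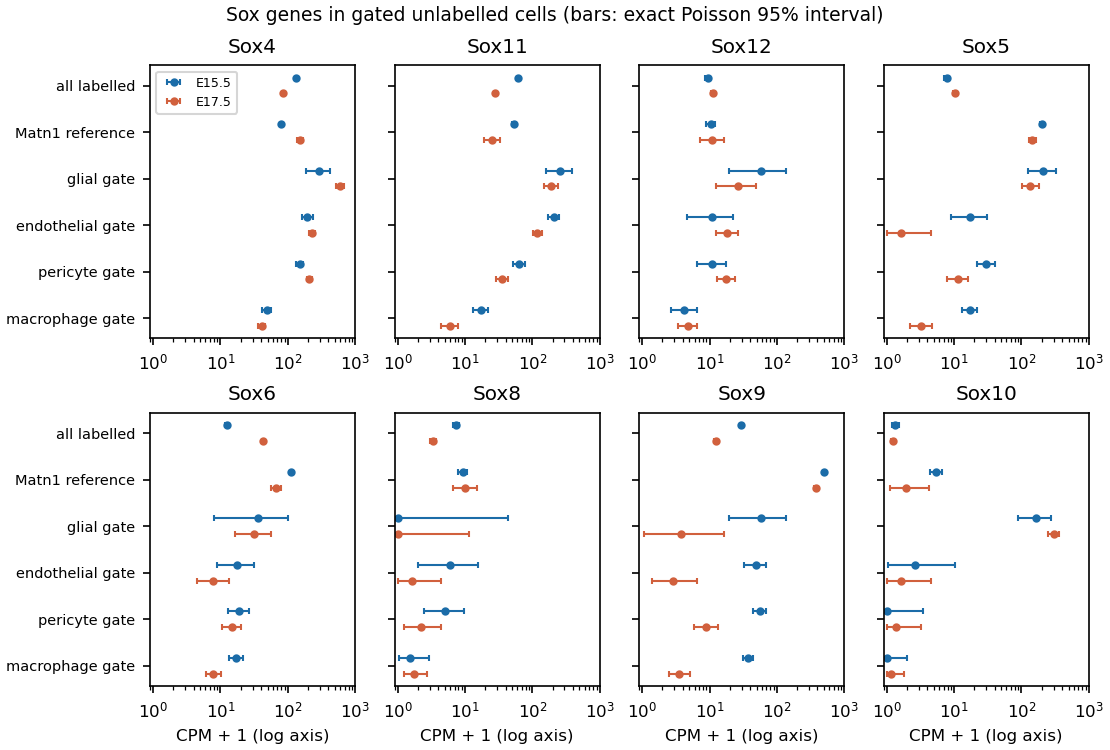
Levels of the 8 Sox genes as CPM + 1 (log axis, bars for 95% Poisson intervals) in the gated groups of unlabelled cells, beside all labelled cells, at E15.5 and E17.5. Sox10 is found in the glial gate at 161 and 301 CPM, and Sox9 is highest in the Matn1-rich cells.

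Other unlabelled cells held SoxC genes. Endothelial cells, gated on 5 vessel genes (43 and 120 cells), held Sox11 at 207 and 118 CPM and Sox4 at 194 and 227 CPM. At E15.5, 50 of the 126 Sox11 UMIs came from 1 cell. Pericytes (108 and 176 cells) held Sox4 at 148 and 208 CPM. Of 11 other Sox genes, 1, Sox13, passed the floor of 50 UMIs in labelled cells in both libraries and 2, Sox1 and Sox14, had 0 UMIs. The SoxF genes, known for their roles in vessels, were found in the endothelial cells, with 44 and 208 UMIs of Sox17, 28 and 354 of Sox18 and 26 and 112 of Sox7.

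The stages were compared by the ratio of the E17.5 to the E15.5 CPM in a cluster, counted where it reached 2-fold with an interval off 1. The median ratio over all genes was 0.949 to 1.16 in the 15 clusters. Of the 105 pairs of member and cluster, 9 were higher at E17.5, where 6.33% of the pairs of all genes were, and 31 were lower, where 8.14% were. The 9 higher pairs were 8 of Sox6 and 1 of Sox5. Of the 31 lower pairs, 12 were of Sox9, 9 of Sox11, 8 of Sox8, 1 of Sox4 (OG1) and 1 of Sox5 (MG3).

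**Figure D4:**
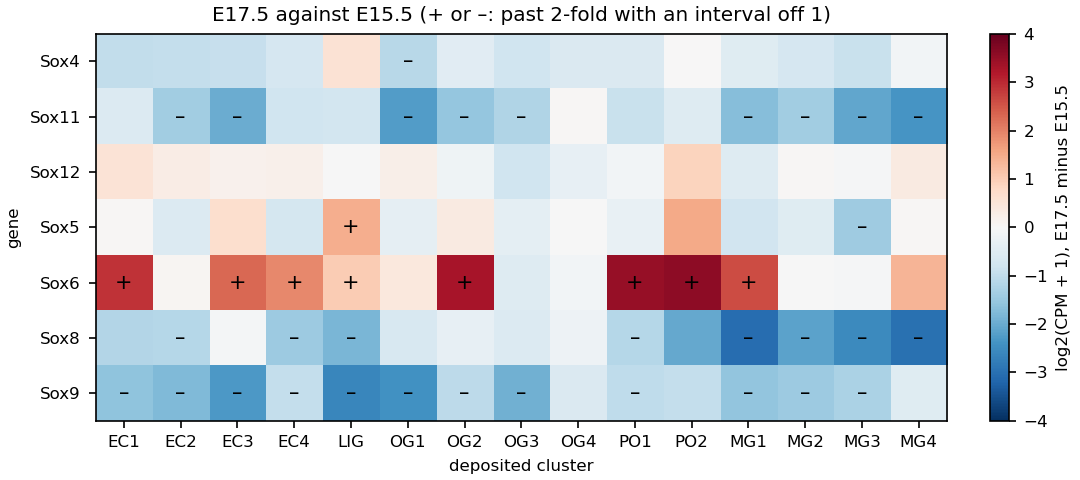
Difference in log2(CPM + 1) between E17.5 and E15.5 for 7 Sox genes in the 15 clusters, red where E17.5 was higher and blue where it was lower, with + or – where the ratio passed 2-fold with an interval off 1. Sox6 holds 8 of the 9 plus signs, and Sox9, Sox11 and Sox8 hold 12, 9 and 8 of the 31 minus signs.

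Sox6 was 13.1-fold (7.08–27.6) higher at E17.5 in PO1, from 4.90 to 64.4 CPM, and 11.9-fold (7.36–20.7) in OG2, from 4.14 to 49.4 CPM. It was 14.6-fold (3.95–123) higher in PO2, from 2 UMIs, 8.67-fold (5.11–15.7) in EC1, 6.49-fold in EC3, 4.40-fold in EC4 and 2.06-fold in LIG. The MG1 ratio of 7.52 (1.33–299) rests on 1 UMI at E15.5. OG1, OG3, OG4 and MG2, the clusters above background at E15.5, were not called, with OG1 at 63.4 and 85.8 CPM and OG3 at 62.6 and 43.9 CPM. The 3 suffixes of E17.5 held Sox6 at 51.1, 64.6 and 67.8 CPM in PO1 and at 48.2, 49.0 and 50.4 CPM in OG2. In macrophages the Sox6 level was lower, at 16.1 and 6.87 CPM.

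Some osteoblast genes of these clusters were also higher at E17.5. Sp7, a transcription factor required for osteoblasts, was at 1.96 CPM in PO1 at E15.5 and 180 CPM in the E17.5 library, at 4.14 and 172 CPM in OG2, and at 2.93 and 110 CPM in EC1, beside 2.64 and 15.7 CPM in macrophages. It was higher at E17.5 in 12 clusters, among them 7 of the 8 of Sox6. In 4 of the 12, EC2, LIG, MG2 and MG3, its E17.5 level of 12.0 to 20.5 CPM was near that of macrophages. Runx2, the other transcription factor required for osteoblasts, was higher in 8 clusters, 6 of them shared with Sox6. Of the 120 pairs of 8 osteoblast genes and 15 clusters, 62 were higher at E17.5 (51.7%) and 20 lower (16.7%), with a median ratio of 2.44 against 1.01 over all pairs. The higher pairs include low levels outside the osteogenic layer, as Ifitm5 in EC2 at 11.4 and 33.7 CPM, beside 3263 and 3238 CPM in OG4. Macrophages also held more at E17.5, with Runx2 at 7.13 and 16.6 CPM and Alpl at 8.71 and 39.4 CPM. The part of background in the count was not tested. Bglap, which encodes osteocalcin, was lower in 11 clusters. In OG4, Ibsp was 0.33-fold, Spp1 0.34-fold, Dmp1 0.15-fold and Bglap 0.06-fold, and no gene of the list was called higher there. At E15.5, OG2 and PO1 thus carried the osteogenic label with Sp7 near the macrophage level. Their Runx2 level, at 30.7 and 21.5 CPM, was above the 7.13 CPM of macrophages. The part of cluster make-up in the difference of Sox6 was not tested.

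Sox11 was called lower at E17.5 in 9 clusters, with a median ratio of 0.37 over the 15. In EC1, EC4, LIG, PO1 and PO2 the ratio was 0.53 to 0.69 and was not called. In OG1 it went from 133 to 27.6 CPM, 0.21-fold (0.18–0.25), and its 3 suffix values at E17.5 were 29.5, 27.2 and 27.6 CPM. OG4 was not called, at 12.2 and 12.5 CPM. Macrophages held 16.1 and 4.93 CPM, and the 9 clusters were called also when the macrophage level was subtracted from each library, an alternative added after the data were seen.

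**Figure D5:**
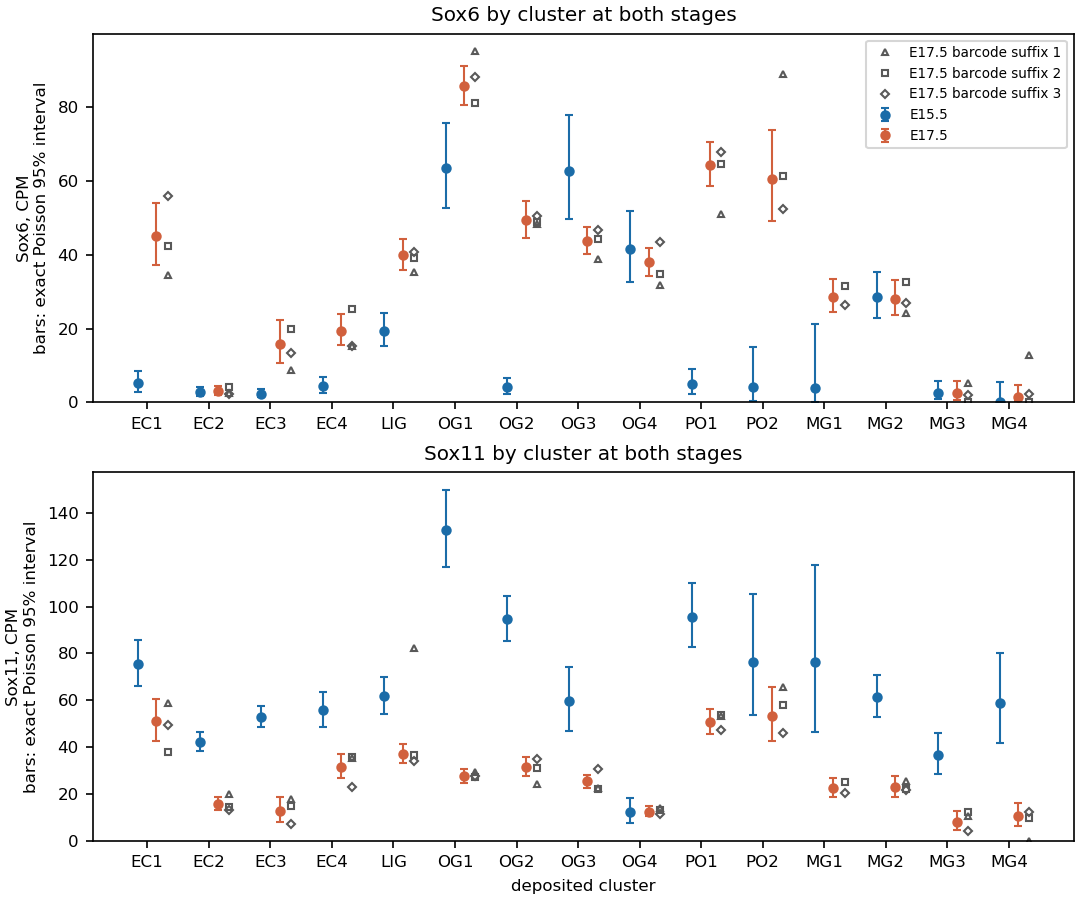
Levels of Sox6 and Sox11 in CPM with 95% Poisson intervals in each cluster at E15.5 and E17.5, with open symbols for the 3 barcode suffixes of E17.5. Sox6 is higher at E17.5 in OG2, PO1 and PO2 and Sox11 is lower in OG1.

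The SoxE genes were lower at E17.5 against different backgrounds. Sox9 had a median ratio of 0.36, as in MG2 at 0.36-fold (0.29–0.43), and of its 15 ratios, all below 1, 12 were called. OG4, PO2 and MG4 were not, with intervals that included 1. In macrophages the ratio was 0.07-fold (0.04–0.12). With the macrophage level subtracted, 1 of its 12 calls remained. Only OG3 and MG1 to MG4 were above the macrophages at E15.5. In the other clusters nothing was left at E15.5, so no lower level could be called there. Less Sox9 in a cluster and less Sox9 from other cells cannot be told apart here. Sox8 had a median ratio of 0.32 and was at 0.14-fold (0.05–0.31) in MG3 and 0.08-fold (0.01–0.29) in MG4, and all 8 of its calls remained after subtraction. Its macrophage level was below 1 CPM in both libraries.

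Sox4 had a median ratio of 0.63, below 1 in 13 clusters, and was called in OG1 alone at 0.46-fold (0.40–0.53), while LIG went from 126 to 189 CPM, 1.5-fold (1.35–1.66). With the macrophage level subtracted, 8 clusters were called lower for Sox4 in place of 1. Sox5 in LIG went from 5.26 to 16.1 CPM, 3.05-fold (1.93–5.08), the cluster in which Sox6 and Sox4 were also higher at E17.5. Sox12 had a median ratio of 1.03 and no calls.

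The genes most like each member were found by correlating log2(CPM + 1) over the 15 clusters in each library and taking the lower of the 2 values of r. These correlations are descriptions, since the clusters share libraries, depth and free RNA. For Sox6 they were Dlx6 (0.91), Ankrd44 (0.91) and Tnn (0.86), of which Dlx6 is a homeobox factor of skeletal development and Tnn a tenascin of the bone-forming periosteum. For Sox9 they were Fxyd5 (0.81), which the authors used as a marker of the dura, Syne4 (0.80) and Slc23a2 (0.80). For Sox5 they were Scx (0.78), the tendon and ligament transcription factor, Pdzrn4 (0.77) and Cpm (0.74).

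The SoxC genes had other neighbours. Sox11 was most like Naa50 (0.86), Pcnp (0.85) and Sumo3 (0.84), Sox12 like Lrpprc (0.83) and Rprd1b (0.81), and Sox4 like Armcx1 and Gm15222 (each 0.75). For Sox8 they were Lpcat4 (0.59), Ggh (0.56) and Klf10 (0.56). Among the members, Sox5 and Sox6 correlated at 0.67 and 0.82, whereas Sox9 and Sox5 did so at 0.65 at E15.5 and −0.03 in the E17.5 library. The pattern over clusters of Sox9 itself correlated at 0.77 between the libraries and that of Sox8 at 0.12. Sox5, Sox6 and Sox9 were the 3 of 7 members whose highest cluster was the same in both libraries.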

How the data were processed

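Droplet libraries of coronal suture cells were prepared by the authors with the 10x Chromium 3′ v2 kit, and 1 sample per stage was deposited. Per the labels, the submitters' processing notes name Cell Ranger, FastQC 0.11.7, MultiQC 0.9 and Seurat 3.2.0 and the build mm10, and the E15.5 matrix header names Cell Ranger 3.1.0. The deposited matrices hold UMI counts per gene and barcode that were not normalised, and the deposited metadata hold counts per cell and the cluster of each labelled cell. A second deposited table repeats the cell names without values and was not used. Of 15384 and 9326 barcodes, 8117 and 8767 passed the stated limits (at least 1000 UMIs and 1000 genes, at most 7.5% mitochondrial and 3% of each haemoglobin class). Labels were matched for 5335 of 5340 and for 6830 of 6830 cells, 93 labelled E15.5 cells outside the limits were kept, and 2875 and 1937 cells were unlabelled. Labelled cells held 48607817 and 92585034 UMIs.

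UMIs were summed per gene, cluster and library with Python 3.11.15, numpy 2.4.6, pandas 2.3.3 and scipy 1.17.1, and divided by the summed UMIs (CPM). Intervals are exact Poisson for levels, exact conditional binomial for ratios and Clopper-Pearson for shares. A group with 0 UMIs is limited by 3 counts. Shares were also computed after each cell was thinned to 3000 UMIs, leaving out 160 shallower E15.5 cells. Since each stage is 1 deposited sample, no test across samples was made and no p-value is given. Doublets were not removed, except in an alternative that left out the top 6% of Scrublet scores (scanpy 1.11.5). The ratio script was tested on simulated data. Gates on unlabelled cells used 10 UMIs of Matn1, 10 UMIs of C1q genes in sum, or 3 markers of a type. Named genes were all members, the 3 most alike genes of each, and up to 4 genes of each list with the most UMIs in the cells described. Some genes that this rule names are not reported here. Sp7, Runx2, Dmp1 and Bglap, and Acan in MG1, fall outside this rule and were named after their values were seen. The members, gene lists and gates were chosen with earlier results of these data known. Gene positions and sequences are from GENCODE vM21 on GRCm38.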

Additional observations from a re-analysis of the deposited data

How the results depend on the processing

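No paired analysis was possible because each stage is 1 deposited sample and no test was made. The 7 counts of members were recomputed under up to 14 alternatives, and of 111 values 105 stayed within 1.5 times the count reported and 6 moved. With a 1.5-fold limit in place of 2-fold, 8 pairs were high in place of 4 and 16 low in place of 10. With suffix 1 of E17.5 alone, 5 pairs were higher at E17.5 in place of 9, and 5 layer ratios were called in place of 3. MG1 had 0 cells in that suffix, so none of its pairs could be called there. The number of members with the same highest cluster in both libraries was 1 in place of 3, both with mean UMIs per cell not divided by depth and in labelled cells with 0 Matn1 UMIs. Without suffix 1, 3 of the 4 high pairs were kept, Sox5 in MG2 was lost and Sox8 in MG3 was added. Without suffix 3, Sox5 in OG1 was added, and without suffix 2 the 4 pairs were the same. The cause of these changes was not tested. Of 2756 single values under the alternatives, 2474 stayed within their interval, 280 moved and 2 reversed: the ratio of Sox9 in PO1 between stages was 1.26 by thinned share and 1.63 in cells with 0 Matn1 UMIs, against 0.47. An alternative added after the data were seen, subtraction of the macrophage level, gave 6 high pairs (adding Sox9 in MG3 and MG4). It kept 2 of the 10 low pairs, all 9 pairs higher at E17.5 and 19 of the 31 lower ones. The lower pairs of Sox4 rose from 1 to 8. At E15.5 the other labelled cells were below the macrophages for Sox5, Sox6 and Sox9, so their level was set to 0. For these genes no pair could be low, and every cluster with a CPM above the macrophages was high at E15.5. The higher pairs other than Sox6 in LIG also began from a level set to 0. A lower Sox9 could be called only in OG3 and MG1 to MG4. Depth limits Sox8 and Sox10, with 220 to 307 and 16 to 21 UMIs in labelled cells, and MG1 at E15.5, with 28 cells.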
